A study of Homo sapiens with 6 samples.

Results

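The enzymes of serine synthesis and of folate-dependent one-carbon metabolism were examined in RCC4, a line from a human clear cell kidney cancer without working VHL (the tumour suppressor that targets hypoxia-inducible factors for degradation), with ATF4 knocked out (n = 3 libraries) or in its parental form, labelled wild type (n = 3 libraries). The set holds 10 named enzymes of the 60683 genes in the count table: PHGDH, PSAT1 and PSPH of serine synthesis, SHMT2, MTHFD2, MTHFD1L and ALDH1L2 of the mitochondrial folate arm, SHMT1 and MTHFD1 of the cytosolic arm, and GLDC of glycine cleavage. The set is a list of gene names, and all 10 were matched to an Ensembl identifier. No treatment, age or culture condition is given for either group, and the method of the ATF4 knockout is not stated, nor whether those cells are a clone or a pool. Any other difference that the knockout cells carry therefore cannot be told apart from the loss of ATF4, and p-values measure only the spread between these libraries, which may be technical.

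The transcription factor ATF4, of the bZIP family, is translated more when the initiation factor eIF2 is phosphorylated, and genes of serine synthesis and of the mitochondrial folate arm are among its known targets. Cells make serine from the glycolytic intermediate 3-phosphoglycerate in consecutive steps: PHGDH oxidises it, PSAT1 transfers an amino group and PSPH removes the phosphate. Serine then gives a carbon to tetrahydrofolate, through SHMT2 in mitochondria or SHMT1 in the cytosol, and leaves glycine. The mitochondrial arm oxidises that carbon to formate (MTHFD2, then MTHFD1L) or to carbon dioxide (ALDH1L2), while the cytosolic enzyme MTHFD1 carries out the corresponding reactions outside mitochondria and takes formate up into folate. GLDC is the decarboxylase of the glycine cleavage system, which feeds the same mitochondrial folate pool.

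Total counts were 41002611 to 46755358 in the ATF4 knockout libraries and 42502027 to 44524187 in the parental libraries, so that 3 counts correspond to 0.0634 to 0.0729 CPM (counts scaled to the library's size with TMM factors). Such limits, and the exact intervals of summed counts given below, cover counting error only. The 95% intervals of log2 fold changes come from the edgeR fit and include the spread between libraries. The ATF4 transcript was retained: it stood at 214 ± 8.04 CPM in ATF4 knockout and 244 ± 5.97 CPM in parental cells (SD, n = 3 each). Its log2 fold change was -0.19 (SE 0.0294, edgeR adjusted p = 3.19e-07). The median log2 fold change of its 100 nearest tested genes on chromosome 22 was -0.25. A mutated gene can still be transcribed, so this count is no check of the labels. With the neighbour median removed ATF4 was at 0.064 and was not called (edgeR adjusted p = 0.0852; 4.04e-09 to 0.0852 over 14 alternatives). The renal markers (PAX8, PAX2, KRT8, KRT18, VIM, CA9 and NDUFA4L2) were all present, at a summed 6560 to 6760 CPM in ATF4 knockout and 5860 to 6210 CPM in parental libraries, a sum of which VIM makes up most. CA9, a target of hypoxia-inducible factors, averaged 96.9 ± 3.63 CPM in ATF4 knockout and 16.6 ± 0.554 CPM in parental cells (SD, n = 3 each, log2 fold change 2.55, edgeR adjusted p = 4.85e-45). All 4 leukocyte and all 4 endothelial markers had at most 10 counts in any library.

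Of the 10 enzymes, 8 passed the filter on low counts and were tested, and 5 of these were lower and 2 were higher in ATF4 knockout cells at an edgeR adjusted p below 0.05. Over all 15321 tested genes, 20.8% were lower and 21.2% were higher by the same rule. PSAT1, PSPH, MTHFD2, MTHFD1L and SHMT1 were lower, GLDC and MTHFD1 were higher, and SHMT2 was not called. The median log2 fold change was -0.15 over the 8 enzymes and 0.0077 over all tested genes. PHGDH and ALDH1L2 were nearly without reads in both groups.

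**Figure D1:**
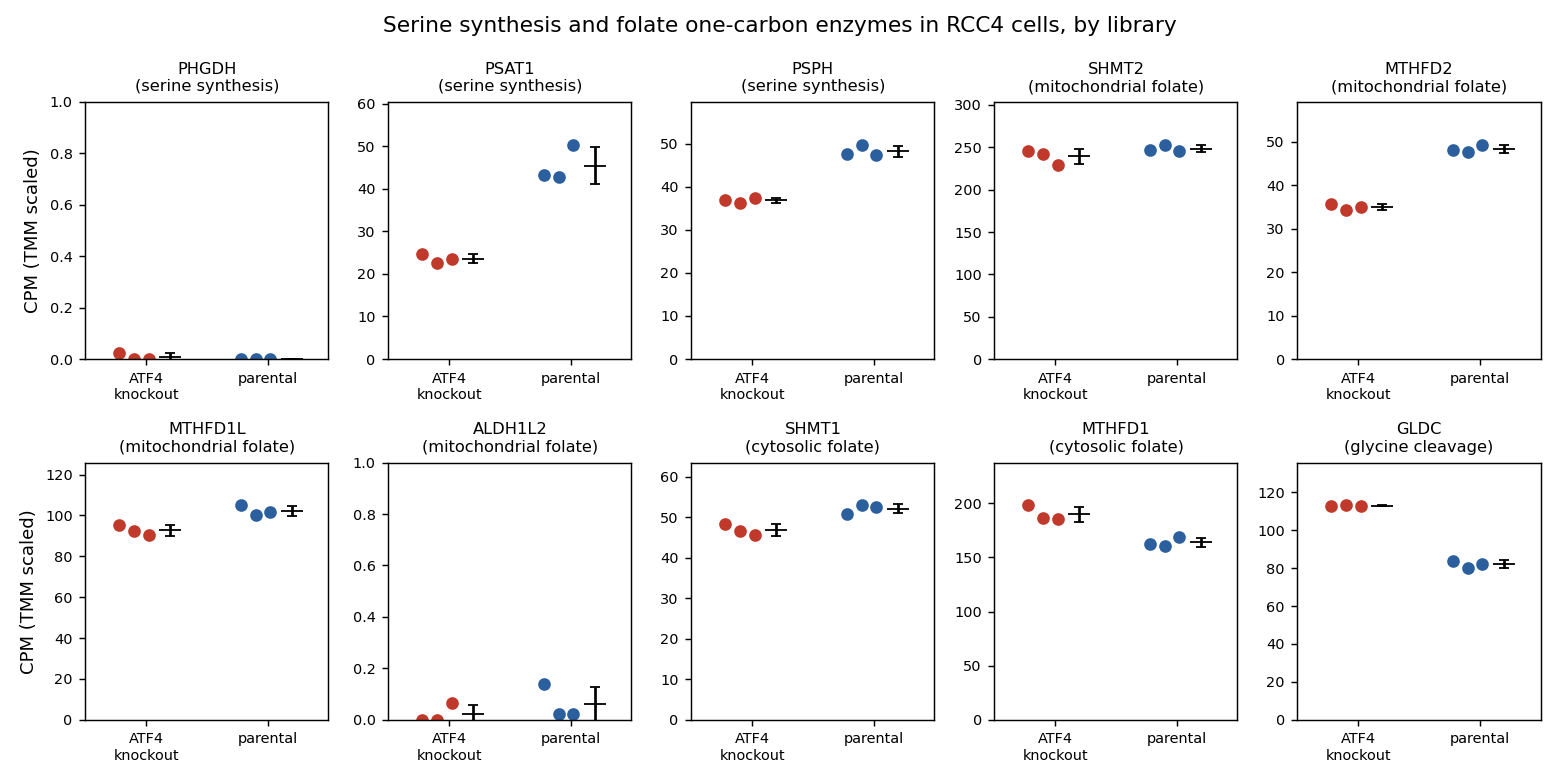
TMM-scaled CPM of each enzyme in each library (linear axes from 0, a separate scale per gene), with red points for ATF4 knockout and blue points for parental libraries, and a black bar with whiskers for the mean and SD (n = 3 per group). PSAT1 lies at 22.6 to 24.8 CPM in ATF4 knockout against 42.7 to 50.4 CPM in parental libraries, while PHGDH and ALDH1L2 stay near 0 in every library.

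The first enzyme of serine synthesis was not expressed at a measurable level in either group. PHGDH (ENSG00000092621, chromosome 1, 119648411 to 119744226, plus strand, GRCh38, coordinates of GENCODE 29 throughout) had 1, 0 and 0 counts in the ATF4 knockout libraries and 0, 0 and 0 counts in the parental libraries. Over each group, 3 counts correspond to 0.0222 CPM in ATF4 knockout and 0.0232 CPM in parental cells, and PHGDH was below both. No fold change can be given, and the following enzymes of the route were measured in cells with almost no reads of the first.

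PSAT1, the phosphoserine aminotransferase and the next enzyme of the route, was expressed and had the lowest log2 fold change of the 8 tested enzymes. PSAT1 (ENSG00000135069, chromosome 9, 78297143 to 78330093, plus strand) had 24.8, 22.6 and 23.5 CPM in ATF4 knockout libraries, against 43.3, 42.7 and 50.4 CPM in parental libraries. The groups did not overlap, and parental replicate 3 was the highest library. PSAT1 fell 1.93-fold (log2 fold change -0.95, SE 0.0564, edgeR adjusted p = 2.74e-18).

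PSPH, the phosphatase that completes serine synthesis (ENSG00000146733, chromosome 7, 56011051 to 56051604, minus strand), had 36.9, 36.2 and 37.3 CPM in ATF4 knockout libraries and 47.6, 49.7 and 47.3 CPM in parental libraries. All ATF4 knockout libraries lay below all parental libraries, and the decrease was 1.31-fold (log2 fold change -0.39, SE 0.0461, edgeR adjusted p = 3.74e-10). PSPH has a pseudogene with reads of its own, PSPHP1, which had 245, 330 and 241 counts in ATF4 knockout and 259, 278 and 239 counts in parental libraries, with no call (log2 fold change 0.02, SE 0.115). Reads that fit both genes may have been left out by the counting, so PSPH is less certain than PSAT1. Of 15 annotated pseudogenes of the 10 enzymes, only PSPHP1 and GLDCP1 reached 10 counts in any library.

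Within a library the reads of PSAT1 fell relative to those of PSPH. The count ratio of PSAT1 to PSPH was 0.672, 0.623 and 0.629 in ATF4 knockout and 0.910, 0.859 and 1.07 in parental libraries. The log2 ratio differed by -0.55 between the groups. With 3 libraries against 3, the exact two-sided permutation test cannot go below p = 0.1, and it gave p = 0.1 here and for each of the 4 ratios examined (0.1 after Benjamini-Hochberg adjustment over the 4).

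The mitochondrial folate arm did not move as a block. MTHFD2, the dehydrogenase and cyclohydrolase of the arm (ENSG00000065911, chromosome 2, 74198562 to 74217565, plus strand), had 35.6, 34.3 and 34.9 CPM in ATF4 knockout libraries and 48.1, 47.6 and 49.3 CPM in parental libraries. The groups were well apart, and MTHFD2 fell 1.38-fold (log2 fold change -0.47, SE 0.0463, edgeR adjusted p = 1.48e-12). Its paralog MTHFD2L was low, at 4.27 ± 0.156 CPM in ATF4 knockout and 4.17 ± 0.179 CPM in parental cells (SD, n = 3 each), and was not called.

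MTHFD1L, the mitochondrial formyltetrahydrofolate synthetase that releases formate (ENSG00000120254, chromosome 6, 150865549 to 151101887, plus strand), had 95.4, 92.6 and 90.3 CPM in ATF4 knockout libraries and 104.9, 100.3 and 101.5 CPM in parental libraries. The groups did not overlap, but the difference was small (log2 fold change -0.14, SE 0.0338, edgeR adjusted p = 5.38e-04). Its 100 nearest tested genes on chromosome 6 had a median of -0.08. With that median removed MTHFD1L was at -0.06 and was no longer called (edgeR adjusted p = 0.184; 3.92e-04 to 0.184 over 14 alternatives).

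SHMT2, the mitochondrial serine hydroxymethyltransferase (ENSG00000182199, chromosome 12, 57229327 to 57234935, plus strand), was not called. It had 246.2, 242.4 and 229.7 CPM in ATF4 knockout libraries and 246.9, 253.1 and 245.2 CPM in parental libraries, and the groups overlapped. The log2 fold change was -0.05 (SE 0.0289, 95% interval -0.11 to 0.0047, edgeR adjusted p = 0.138). Without knockout replicate 1 it was -0.08 and was called (edgeR adjusted p = 0.0418; 0.0418 to 0.58 over 14 alternatives), and without knockout replicate 3 it was -0.03 (edgeR adjusted p = 0.58). SHMT2 shares 33 exon bases with NDUFA4L2 on the opposite strand, a gene at 471 CPM in ATF4 knockout and 276 CPM in parental cells. The kit keeps strand, but the strand setting of the counting is not given in the sources used here, and the part of this overlap in the SHMT2 counts was not tested.

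ALDH1L2, the mitochondrial formyltetrahydrofolate dehydrogenase (ENSG00000136010, chromosome 12, 105019784 to 105084577, minus strand), had 0, 0 and 3 counts in ATF4 knockout libraries and 6, 1 and 1 counts in parental libraries. The summed counts of 3 in ATF4 knockout and 8 in parental libraries gave a ratio of 0.360 (exact 95% interval of the counts 0.0615 to 1.5). A difference was not detectable at this depth. ALDH1L1, the cytosolic counterpart, was also low, with 4 counts over the ATF4 knockout libraries and 13 over the parental libraries (ratio 0.296, interval 0.0702 to 0.957). ALDH1L1 did not pass the filter on low counts and was not tested. Its interval leaves out the spread between libraries, so it does not show a difference between the groups.

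The 2 cytosolic enzymes went in opposite directions. MTHFD1, the trifunctional cytosolic folate enzyme (ENSG00000100714, chromosome 14, 64388031 to 64463457, plus strand), had 198.0, 186.3 and 185.6 CPM in ATF4 knockout libraries and 162.1, 160.5 and 168.9 CPM in parental libraries. Every ATF4 knockout library lay above every parental one, and MTHFD1 rose 1.16-fold (log2 fold change 0.21, SE 0.0302, edgeR adjusted p = 4.47e-08).

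SHMT1, the cytosolic serine hydroxymethyltransferase (ENSG00000176974, chromosome 17, 18327860 to 18363563, minus strand), had 48.3, 46.5 and 45.5 CPM in ATF4 knockout libraries and 50.8, 52.9 and 52.4 CPM in parental libraries. The groups did not overlap, though they lay close together, and SHMT1 fell by 0.15 on the log2 scale (SE 0.0437, edgeR adjusted p = 0.00314). It shares 196 exon bases with SMCR8 on the opposite strand, which was at 97.6 CPM in ATF4 knockout and 106 CPM in parental cells, and the part of this overlap was not tested.

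Set against each other within a library, the arms differed by enzyme pair. The count ratio of MTHFD2 to MTHFD1 was 0.180, 0.184 and 0.188 in ATF4 knockout and 0.297, 0.297 and 0.292 in parental libraries, a log2 difference of -0.68. The ratio of MTHFD1L to MTHFD1 was 0.482, 0.497 and 0.486 in ATF4 knockout and 0.647, 0.625 and 0.601 in parental libraries, a log2 difference of -0.35. These ratios share MTHFD1, which itself rose by 0.21 on the log2 scale, against own changes of -0.47 for MTHFD2 and -0.14 for MTHFD1L, so they are not independent of each other. The ratio of the serine hydroxymethyltransferases went the other way. SHMT2 to SHMT1 was 5.09, 5.21 and 5.05 in ATF4 knockout and 4.86, 4.79 and 4.68 in parental libraries, a log2 difference of 0.10. The own log2 fold changes were -0.05 for SHMT2, which was not called, and -0.15 for SHMT1. The part of the opposite-strand overlaps of both genes in this ratio was not tested. No ratio overlapped between the groups, and each exact permutation p was 0.1, the smallest that 3 against 3 allows. How often the ratios of other gene pairs overlap between these groups was not examined.

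**Figure D2:**
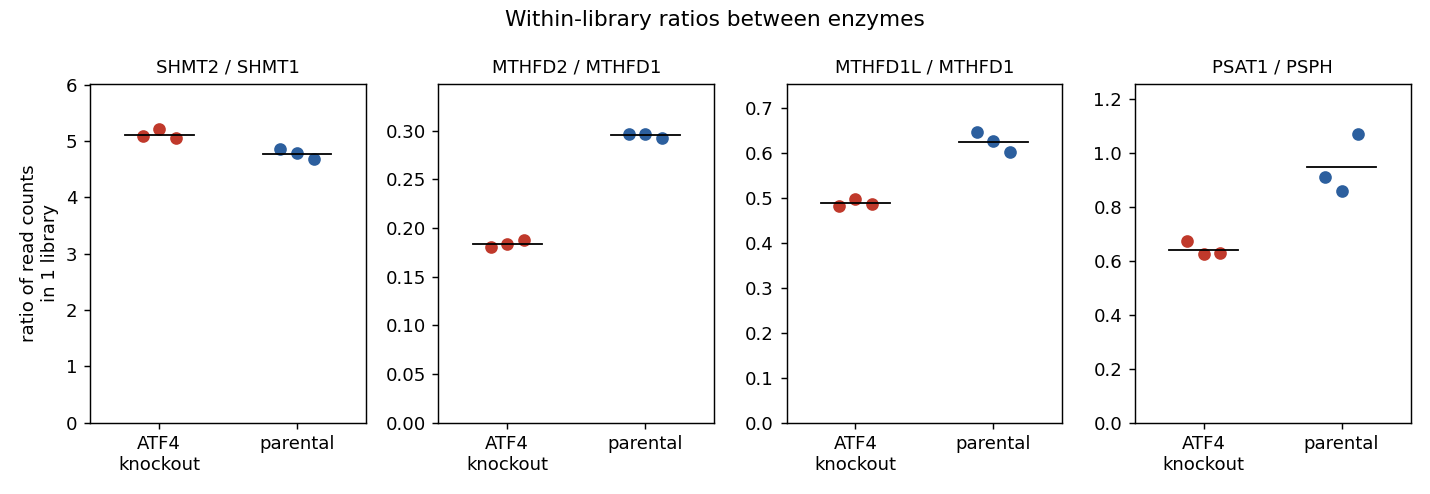
Ratio of the read counts of 2 enzymes within each library (linear axes from 0), with red points for ATF4 knockout and blue points for parental libraries, and a line at the group mean (n = 3 per group). MTHFD2 over MTHFD1 lies at 0.180 to 0.188 in ATF4 knockout against 0.292 to 0.297 in parental libraries, while SHMT2 over SHMT1 lies at 5.05 to 5.21 against 4.68 to 4.86.

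GLDC was the enzyme that rose most of the 8. GLDC (ENSG00000178445, chromosome 9, 6532464 to 6645783, minus strand) had 112.9, 113.1 and 112.7 CPM in ATF4 knockout libraries and 83.9, 80.0 and 82.5 CPM in parental libraries. The groups were far apart next to the spread within them, and GLDC rose 1.38-fold (log2 fold change 0.46, SE 0.0334, edgeR adjusted p = 2.94e-17). No other subunit of the glycine cleavage system was called. AMT, the aminomethyltransferase, had 0, 1 and 0 counts in ATF4 knockout and 0, 0 and 1 counts in parental libraries. GCSH, the lipoate carrier, had 1.04 ± 0.109 CPM in ATF4 knockout and 0.947 ± 0.352 CPM in parental cells, and DLD, the dihydrolipoamide dehydrogenase, had 139.2 ± 2.67 CPM in ATF4 knockout and 140.5 ± 0.825 CPM in parental cells (SD, n = 3 each). GCSH has several annotated pseudogenes, so its count is uncertain. GLDC was thus measured in cells that had almost no counted AMT reads. Overlaps of AMT with other genes were not examined, so its low count is uncertain.

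Levels between genes were compared per kilobase of exon, using all annotated exons of a gene, which overstates the length of the transcripts actually made. The overstatement can differ between genes, and the annotated lengths ran from 2.19 kb (PSAT1) to 9.38 kb (MTHFD1). The order of the enzymes therefore depends on this choice of length. SHMT2 stood highest in both groups, at 49.5 ± 1.79 CPM per kb in ATF4 knockout and 51.3 ± 0.860 CPM per kb in parental cells. In ATF4 knockout cells the order below it was MTHFD1 (20.3 CPM per kb), MTHFD1L (18.5), PSPH (13.3), GLDC (12.6), PSAT1 (10.8), MTHFD2 (7.17) and SHMT1 (6.43). In parental cells it was PSAT1 (20.8 CPM per kb), MTHFD1L (20.4), MTHFD1 and PSPH (both 17.5), MTHFD2 (9.93), GLDC (9.19) and SHMT1 (7.15). PSAT1 and MTHFD1L in parental cells differed by less than the SD of PSAT1 (1.94 CPM per kb), and MTHFD1 and PSPH did not differ beyond their SD of 0.478 and 0.484 CPM per kb. By this measure alone, PSAT1 ranked next to SHMT2 with MTHFD1L in parental cells and below GLDC in ATF4 knockout cells. The order by the lengths of the transcripts actually made was not examined.

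**Figure D3:**
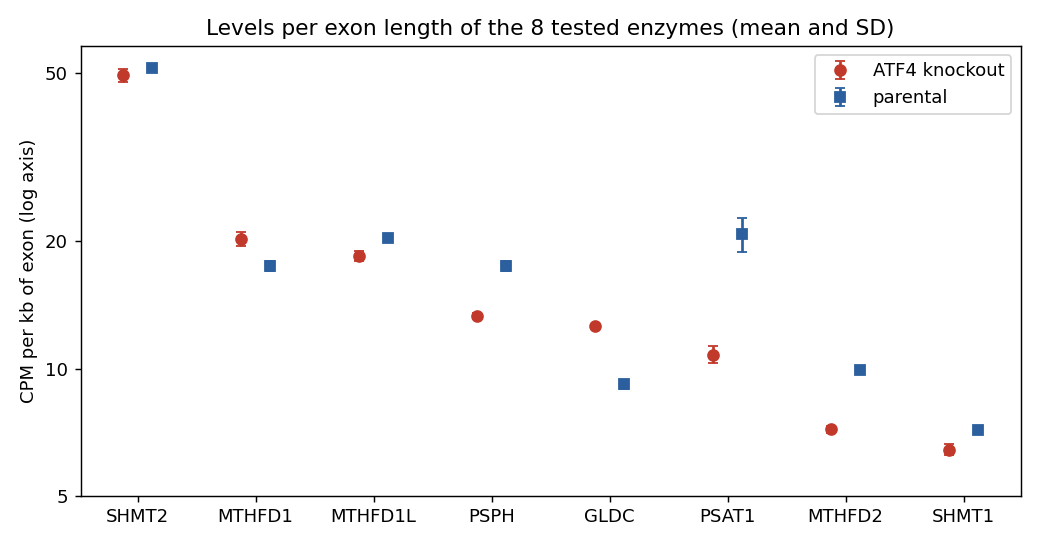
Mean level of the 8 tested enzymes in CPM per kilobase of annotated exon (log axis), with red circles for ATF4 knockout, blue squares for parental cells and whiskers for the SD (n = 3 each). SHMT2 lies near 50 CPM per kb in both groups, and PSAT1 at 10.8 in ATF4 knockout against 20.8 in parental cells.

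Around some genes, such as ATF4 on chromosome 22, most neighbours had shifted the same way, so each enzyme was also set against its nearest tested genes on the chromosome (up to 50 on each side). The neighbour medians of the 8 enzymes ranged from -0.08 (MTHFD1L) to 0.08 (GLDC) on the log2 scale. With the neighbour median removed, PSAT1 was at -1.01, MTHFD2 at -0.53, PSPH at -0.35, SHMT1 at -0.21, MTHFD1 at 0.18 and GLDC at 0.38, all still called by edgeR. MTHFD1L was the only called enzyme that lost its call.

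**Figure D4:**
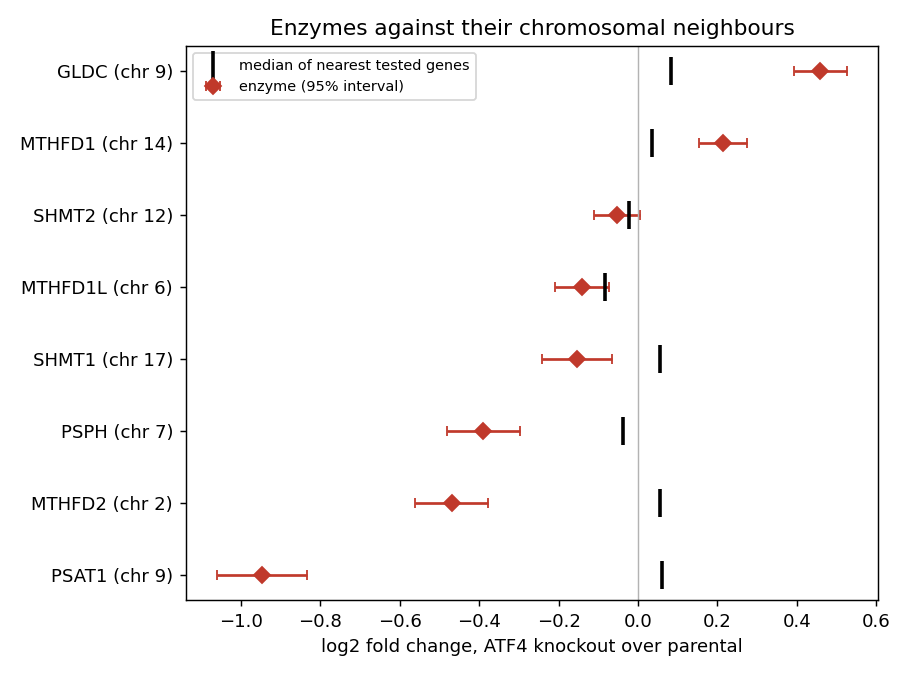
Change on the log2 scale (ATF4 knockout over parental, 3 libraries each) of the 8 tested enzymes with 95% intervals (red) and the median log2 fold change of the nearest tested genes on the same chromosome (black bars, up to 50 on each side). The neighbour medians lie between -0.08 and 0.08, and PSAT1 lies farthest from its own, at -0.95 against 0.06.

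The promoter windows of the enzymes were searched for the composite element that ATF4 binds with C/EBP partners (TGATGNAA), the cyclic AMP response element (TGACGTCA), the E-box (CACGTG) and the CCAAT box (GCCAAT). Windows of 250 bases before and 50 bases after the RefSeq start (GRCh38.p14) were found for 7 of the 10 enzymes, and both strands were read. PSPH, SHMT2 and ALDH1L2 had no window and were not searched. The composite element was in the windows of MTHFD1L alone, against 3.62% of all 35116 windows, and TGACGTCA was in none of the 7, against 1.85%. The E-box was in the windows of MTHFD1 and MTHFD1L (7.26% of all windows), and the CCAAT box in those of PSAT1, GLDC, SHMT1 and MTHFD1 (14.8%). These are shares of windows, whereas an enzyme was counted if any of its windows matched, and MTHFD1L had several windows. The stretches below let the promoter of PSAT1, the most lowered enzyme, be read beside those of MTHFD1L and MTHFD1. MTHFD1L was the only one of the 7 searched enzymes with the ATF4 composite element in a searched window, and MTHFD1 rose. Sequence outside these windows was not searched, so the other enzymes may carry the element elsewhere. The stretches run 5′ to 3′ on the strand of the gene, with the match in capitals.

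MTHFD1L, composite element, chr6:150866346-150866375, plus strand: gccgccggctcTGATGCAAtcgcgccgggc

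PSAT1, CCAAT box, chr9:78297060-78297089, plus strand: gcgacagcacggGCCAATggggcgccgact

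MTHFD1, E-box, chr14:64388326-64388355, plus strand: ccagtccctaagCACGTGggttgggttgtc

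GLDC, CCAAT box read as its complement, chr9:6645766-6645795, minus strand: ctgtctactttcATTGGCcaagggcttcct

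MTHFD1L has several annotated starts, and its composite element begins 129 and 90 bases before 2 of them and inside the transcript of another. The CCAAT box of PSAT1 begins 53 bases before its start and that of GLDC 54 bases before. These are matches of letters in short windows, and no binding was measured.

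The list of the wider pathway held 45 other genes. Of the 36 tested, 12 were lower and 10 were higher, with a median log2 fold change of 0.06, against 20.8% lower and 21.2% higher of all tested genes. The 14 that were not called had log2 fold changes of -0.05 to 0.29, and the 9 that were not tested had at most 16 counts in any library. CBS, which condenses serine with homocysteine, had 0 counts in every library, but it has a near-identical annotated copy, CBSL, so this value is uncertain.

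Of 5 listed genes of serine transport, 3 were lower and 2 were higher, beside 20.8% lower and 21.2% higher of all tested genes. Both listed serine carriers of the plasma membrane were lower in ATF4 knockout cells, while the sideroflexins of mitochondria went in both directions. SLC1A5, which exchanges serine, glutamine and other neutral amino acids, fell by 0.69 (SE 0.0284) on the log2 scale, to 231.4 ± 6.74 CPM in ATF4 knockout, against 374.1 ± 8.14 CPM in parental cells. SLC1A4, a carrier of serine and alanine, fell by 0.36 (SE 0.0799), to 10.8 ± 0.103 CPM in ATF4 knockout, against 13.9 ± 1.12 CPM in parental cells. Among the sideroflexins, SFXN1, which carries serine into mitochondria, was higher by 0.18 and SFXN3 by 0.15, and SFXN2 was lower by 0.21 on the log2 scale. SFXN2 lost its call without parental replicate 1 (log2 fold change -0.13, edgeR adjusted p = 0.242; 0.00449 to 0.242 over 14 alternatives), and also without knockout replicate 1 or 2 (-0.20 and -0.21), with scaling by total counts (-0.18), with no filter (-0.20) and in DESeq2 (-0.21).

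TYMS, thymidylate synthase, which uses cytosolic folate to make thymidylate, rose. TYMS had 38.3, 41.2 and 40.8 CPM in ATF4 knockout and 24.8, 25.8 and 29.3 CPM in parental libraries (log2 fold change 0.59, SE 0.0545, edgeR adjusted p = 2.28e-13). The groups did not overlap, and parental replicate 3 was the highest parental library. The proliferation marker MKI67, looked up after this value was seen, was at 201 ± 4.27 CPM in ATF4 knockout and 101 ± 17.8 CPM in parental cells, and PCNA was at 133 ± 5.24 CPM in ATF4 knockout and 102 ± 10.3 CPM in parental cells (SD, n = 3 each). The part of proliferation in the rises of TYMS and MTHFD1 was not tested.

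Of 5 genes of folate uptake and retention, 3 were higher and 1 was lower, beside 21.2% higher and 20.8% lower of all tested genes. The reduced folate carrier SLC19A1, the polyglutamate synthase FPGS and the hydrolase GGH were higher by 0.24 (SE 0.0607), 0.21 (SE 0.0445) and 0.30 (SE 0.0767) on the log2 scale, and the folate receptor FOLR1 was lower, at -0.29 (SE 0.0716). With the neighbour median removed SLC19A1 was at 0.15 and FOLR1 at -0.16, and neither was called (edgeR adjusted p = 0.0503 and 0.14). FOLR1 was also not called without knockout replicate 3, where its log2 fold change was -0.29 (edgeR adjusted p = 0.0689). Over 14 alternatives the adjusted p ranged from 6.25e-06 to 0.0503 for SLC19A1 and from 1.08e-14 to 0.14 for FOLR1.

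Of 5 methionine cycle genes, 2 were higher and 3 were lower, beside 21.2% higher and 20.8% lower of all tested genes, and only MTRR kept its call under all 14 alternatives. MTR, methionine synthase, and MTRR, which reactivates it, were higher by 0.12 (SE 0.0354) and 0.41 (SE 0.0479), while AHCY, which hydrolyses S-adenosylhomocysteine, was at -0.20 (SE 0.0275) and the S-adenosylmethionine synthetase subunits MAT2A and MAT2B were both at -0.09. MTRR on chromosome 5 and AHCY on chromosome 20 had neighbour medians of 0.27 and -0.17. With these removed MTRR was at 0.14 and was still called, and AHCY was at -0.03 and was not (edgeR adjusted p = 0.402). MTR was at 0.048 in that fit and was not called (edgeR adjusted p = 0.315). MAT2A and MAT2B lost their calls with scaling by total counts (both at -0.06, edgeR adjusted p = 0.0721 and 0.118). MAT2A was also not called without knockout replicate 2 (-0.08) or parental replicate 2 (-0.07). MAT2B was also not called without knockout replicate 3 (-0.06), parental replicate 1 (-0.09) or parental replicate 3 (-0.08), or with no filter on low counts (-0.08). Over 14 alternatives the adjusted p ranged from 3.45e-14 to 0.402 for AHCY, from 5.20e-04 to 0.315 for MTR, from 3.07e-05 to 0.0822 for MAT2A and from 0.0138 to 0.194 for MAT2B.

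Of the remaining called genes, DMGDH, the mitochondrial dimethylglycine dehydrogenase, was lower at -0.43 (SE 0.0590) and BHMT2 was lower at -0.13 (SE 0.0493). SDSL, a serine dehydratase paralog, was at -0.25 (SE 0.0731), and SRR, serine racemase, was at 0.25 (SE 0.0901). GART, which uses formyl folate in purine synthesis, was at -0.27 (SE 0.0309), but its chromosome 21 neighbours had a median of -0.32, and GART was at 0.051 with that removed (edgeR adjusted p = 0.204; 8.75e-15 to 0.204 over 14 alternatives). ATIC, which uses formyl folate in the same pathway, was not called, at -0.01 (95% interval -0.07 to 0.05). BHMT2 was not called without knockout replicate 2 (log2 fold change -0.09, edgeR adjusted p = 0.193) or parental replicate 1 (-0.11, edgeR adjusted p = 0.139), and SRR not without knockout replicate 2 (0.19, edgeR adjusted p = 0.139) or parental replicate 2 (0.24, edgeR adjusted p = 0.0545). Neither was called in DESeq2 (-0.14 for BHMT2 and 0.25 for SRR) or with the neighbour median removed (-0.10 and 0.18), and BHMT2 also not with scaling by total counts (-0.11). Over 14 alternatives the adjusted p ranged from 0.0164 to 0.193 for BHMT2 and from 0.0103 to 0.139 for SRR.

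**Figure D5:**
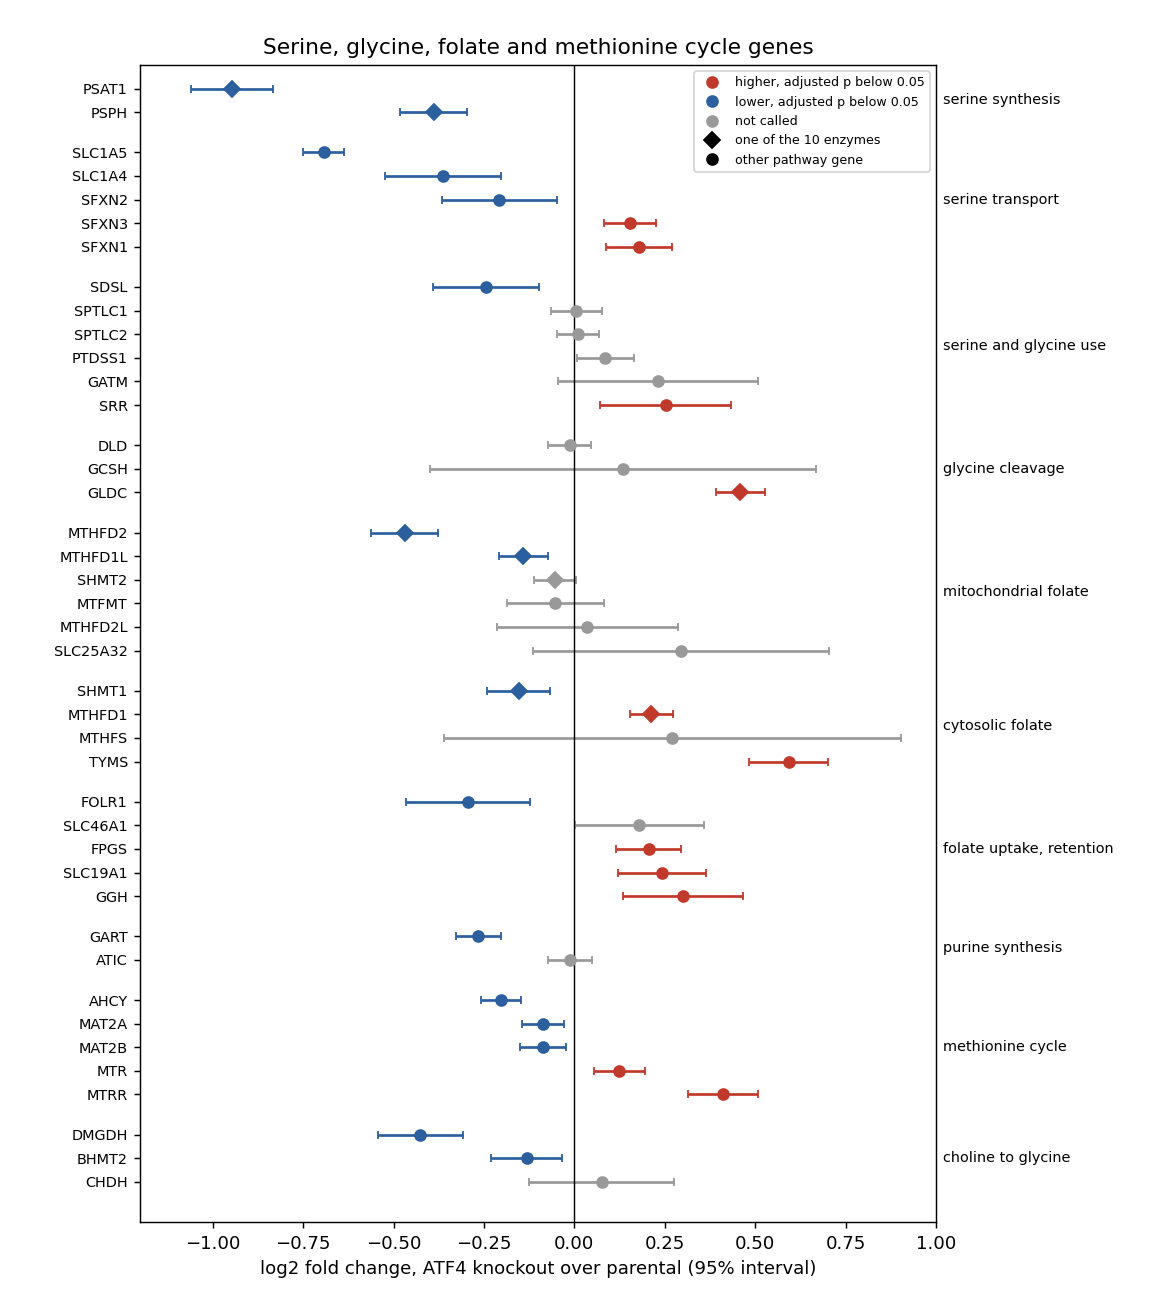
Change on the log2 scale (ATF4 knockout over parental, 3 libraries each) with 95% intervals for the 8 tested enzymes (diamonds) and other tested pathway genes that are reported here (circles), grouped by role, with red for higher and blue for lower at an edgeR adjusted p below 0.05 and grey for not called. PSAT1 at -0.95 and SLC1A5 at -0.69 lie farthest to the left, and TYMS at 0.59 farthest to the right.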

How the data were processed

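Stranded mRNA libraries of RCC4 cells were sequenced, 3 with ATF4 knocked out and 3 parental, grouped by the labels. The deposited values are raw counts of reads per gene, which the authors made, per the submitters' processing notes, with bcl2fastq 2.20, cutadapt, STAR and HTSeq on GRCh38. The sources used here give no other version, annotation or strand setting.

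Of 60683 identifiers, 60370 were named from a gene name table and 289 from GENCODE 29, whose coordinates and exon lengths are given. Genes were kept by filterByExpr and tested across all 15321 kept genes with edgeR 4.0.16 (R 4.3.3): TMM factors, quasi-likelihood F test, robust dispersion, no replicate term, Benjamini-Hochberg adjustment. Fold changes are ATF4 knockout over parental. The library size behind each CPM is the total over the kept genes times the TMM factor. The fit was tested on simulated data. Ratios within libraries were compared by exact permutation. The counts of replicates differed by more than counting error (chi-square over its degrees of freedom 3.59 to 5.80), and all 6 libraries were kept as separate. DESeq2 1.42.0 and limma 3.58.1 were among the alternatives.

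The members and lists were chosen with earlier results of these data known, and the motifs after the sequences had been seen. Named genes were ATF4, the 10 enzymes, every called gene of the wider list (some are counted in its totals but not reported here by name), and pseudogenes with 10 or more counts. Others are named as chosen after their values were seen, or because they overlap a member or give an upper or lower limit of a group. Promoter sequences are from RefSeq. Protein sequences were not used here.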

Additional observations from a re-analysis of the deposited data

How the results depend on the processing

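The called enzymes numbered 4 to 6 lower and 2 higher over 14 alternatives (RLE size factors, scaling by total counts, no filter, a filter of at least 1 CPM in every library, DESeq2, limma-voom, the replicate block, removal of the neighbour median, and leaving out each library). The count of 4 came with the neighbour median removed (MTHFD1L) and that of 6 without knockout replicate 1 (SHMT2). PSAT1, PSPH, MTHFD2, SHMT1, MTHFD1 and GLDC kept direction and call under all 14. The wider list ranged from 8 to 12 lower and 7 to 12 higher. The counts over all genes moved too, to 2780 lower and 3807 higher with scaling by total counts and to 2800 lower and 2736 higher with the neighbour median removed, against 3184 and 3244 as reported. Of 434 gene values under alternatives, 401 kept direction and call, and 2 changed sign, both with the neighbour median removed: ATF4 at 0.064 and GART at 0.051, neither called. MTHFD1L, SLC19A1, FOLR1, SDSL (-0.17), SRR, BHMT2, MTR and AHCY were also not called in that fit. The cause of these changes was not tested, beyond the median that the fit removes by construction.

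Libraries with the same replicate number did not deviate together (correlations of -0.0277, 0.0063 and -0.0155). These values cannot show whether such libraries were prepared together, which the sample labels do not state. With the replicate block 5 enzymes were lower and 2 higher, 12 and 10 in the wider list were lower and higher, and the log2 ratios were as reported (-0.68 for MTHFD2 over MTHFD1), with a paired exact p of 0.25, the smallest that 3 pairs give. Leaving out 1 library moved the PSAT1 to PSPH log2 ratio to between -0.62 and -0.46.

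Depth limits PHGDH, ALDH1L2, AMT and ALDH1L1, which had at most 6 counts in any library. With 3 libraries a group, no permutation p can go below 0.1.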
